A study of Mus musculus with 44 samples.

Results

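The T cell receptor β-chains that begin like the germline ends of Trbv23 and Trbv30 were examined in B16 melanoma tumours. Both are mouse V genes with few distinct CDR3s in these tumours. Members were taken by 2 rules on the amino acid CDR3: it had to start with CSSS (Trbv23) or CSSR (Trbv30), and it had to end in one of the 12 listed Trbj endings. An entry is 1 CDR3 in 1 tumour. The rules took 685 entries, 628 of them distinct, from 95913 TRB entries with a listed ending, 72765 of them distinct. The members held 52273 of 6301600 TRB reads, 0.714% of the entries and 0.83% of the reads.

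The tumours came from wild-type mice of the strain labelled C57BL/6 (C57BL/6J in the methods) in which B16F10 cells, a melanoma line from the same strain, had been implanted under the skin of the back. Treatment was AC484, an inhibitor of the phosphatases PTPN2 and PTPN1 (15 tumours), anti-PD-1, an antibody that blocks the inhibitory receptor PD-1 on T cells (15 tumours), or vehicle (14 tumours). RNA from 100 µg of each tumour, collected on day 12, gave 1 library per tumour. The labels call the control vehicle and the methods call it untreated, and neither the dose nor the age of the mice is in the labels.

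A β-chain gene is built in the thymus by joining a Trbv, a Trbd and a Trbj segment, each flanked by a recombination signal made of a heptamer, a spacer and a nonamer. Bases are trimmed and added at the joints, so the CDR3, the loop that touches the peptide antigen, starts with residues from the V gene, ends with residues from the J gene and holds joint residues between them. Most mouse V genes share the start CASS, and only a few have a start of their own by which a CDR3 without a named V gene can be placed.

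The germline ends show which letters the rules read. The following V ends are from GRCm38 chromosome 6, plus strand, RefSeq annotation, and run from the codon of the CDR3 cysteine to the end of the nonamer, with the heptamer and the nonamer in capitals.
Trbv23, chr6:41216510-41216564: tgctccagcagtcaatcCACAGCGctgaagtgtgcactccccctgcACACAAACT
Trbv30, chr6:41281977-41282029: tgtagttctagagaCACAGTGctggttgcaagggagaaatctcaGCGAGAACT
The Trbv23 end, at the 3′ side of a gene annotated at chr6:41216073-41216526, has 17 coding bases and reads CSSSQ. The Trbv30 end, of the gene at chr6:41281376-41281990, has 14 coding bases and reads CSSR. Counted from the 5′ base of each motif and against the motif letters CACAGTG and ACAAAAACC, the Trbv23 heptamer carries T6C and its nonamer A4C and C9T, after a spacer of 22 bases. The Trbv30 heptamer has no difference, its spacer is 23 bases, and its nonamer carries A1G, A3G, A5G and C9T. Of 22 Trbv segments not marked as pseudogenes, 8 have the heptamer without a difference and 1 has the nonamer without one, and the median was 2.5 nonamer differences (range 0 to 7). The 7 was that of Trbv26, in which no cysteine codon was found and the heptamer has 6 differences. The letters read there may thus not be its signal. In the other segments the highest number was 4, that of Trbv30 among them. These are descriptions of letters, not of signal strength. Only Trbv23 and Trbv30, of the 21 segments with a cysteine codon found, read CSS.

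The table names no V gene, so the start is all that separates the genes. Trimming can leave a Trbv30 joint that reads CSSS or a Trbv23 joint that reads CSSR, and how many members are such joints is unknown. The germline residue Q followed CSSS in 230 of the 462 Trbv23 entries (49.8%). Proline followed it in 77 entries (16.7%), which nevertheless held 54.5% of the Trbv23 reads. Of those 23615 reads, 10071 belonged to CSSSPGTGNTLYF and 9505 to a CDR3 of 15 residues. After CSSR the residues were spread more evenly, with D in 54 of 223 entries (24.2%) and G in 50 (22.4%). A CDR3 that differed only by having CASS in place of CSSS stood in the same tumour for 26 Trbv23 entries, and in 14 of them the CASS copy had more reads. Entries 1 residue away from a TRB entry of the same tumour with at least 20 times its reads made up 1.08% of Trbv23 entries, 0 of 223 Trbv30 entries and 2.88% of all other TRB entries. Single-read entries made up 129 of 462 Trbv23 entries (27.9%), 43 of 223 Trbv30 entries (19.3%) and 22820 of 95228 other TRB entries.

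The genes were chosen by their own CDR3 start and by their low number of CDR3s in earlier results of these data, so their rarity is a description with no test. Trbv23 gave 462 entries, 421 distinct CDR3s and 43344 reads, or 0.482% of TRB entries and 0.688% of TRB reads, in 40 of 44 tumours. It ranked 8 among 26 starts with at least 100 entries. Trbv30 gave 223 entries, 207 distinct CDR3s and 8929 reads, or 0.233% of entries and 0.142% of reads, in 37 tumours, and ranked 15. The other genes with a start of their own were more frequent, with 5297 entries for Trbv1, 9138 for Trbv13-2, 2676 for Trbv20 and 2909 for Trbv31, while the shared start CASS held 66.9% of entries. Trbv23 and Trbv30 lie upstream of the D and J segments with most V genes, whereas Trbv31 lies downstream and is joined by inversion.

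Depth differed between treatments and sets how finely such rare chains can be read. TRB reads per tumour had a median of 135135 in AC484 tumours (range 32948 to 407156), 199348 in anti-PD-1 tumours (58534 to 399662) and 56219.5 in vehicle tumours (5060 to 188185). Distinct TRB CDR3s had a median of 2985 in AC484, 2075 in anti-PD-1 and 483 in vehicle tumours, and 8 vehicle tumours held fewer than the 698 of the smallest treated tumour. The libraries also fell into 4 sets of index primers, which lay unevenly over the treatments. Set 1 held 12 vehicle tumours, set 2 held 10 anti-PD-1 and 2 vehicle tumours, set 3 held 7 AC484 and 5 anti-PD-1 tumours and set 4 held 8 AC484 tumours. AC484 and vehicle tumours shared no set, so that comparison has no within-set value, and sets 2 and 3 link the 2 groups only through anti-PD-1 tumours in a fit with the set as a term. The table holds receptor chains only, so no marker of the tumour or of other cells could be checked, and fewer T cells cannot be told apart from less receptor RNA per cell. Reads carry no molecular identifiers, so intervals and limits cover counting error only. The labels name separate tumours but not cages or days, so p-values measure the spread between tumours as labelled.

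Both chains were found in every AC484 and every anti-PD-1 tumour, whereas 3 vehicle tumours held neither. Trbv23 had 7 to 35 distinct CDR3s in AC484 tumours (median 13), 1 to 22 in anti-PD-1 tumours (median 13) and 0 to 9 in vehicle tumours (median 1.5). Trbv30 had 3 to 28 in AC484 tumours (median 7), 1 to 8 in anti-PD-1 tumours (median 4) and 0 to 6 in vehicle tumours (median 0.5). The groups overlapped for both genes. Among vehicle tumours, 4 held no Trbv23 CDR3 and 7 no Trbv30 CDR3. With so few CDR3s a count of 0 allows up to 0.417% to 2.78% of the distinct CDR3s for Trbv23 and 0.253% to 2.78% for Trbv30, depending on the tumour. At these limits a 0 does not tell absent chains from undetected ones. The lowest limit, 0.253%, was that of vehicle tumour 14 for Trbv30, the vehicle tumour with the most TRB reads (188185).

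Set against all distinct TRB CDR3s of the same tumour, the groups lay closer together. Trbv23 made up 0.432% ± 0.124 of distinct CDR3s in AC484 tumours (SD, n = 15; range 0.242 to 0.632), 0.591% ± 0.195 in anti-PD-1 tumours (n = 15; 0.143 to 0.859) and 0.435% ± 0.478 in vehicle tumours (n = 14; 0 to 1.74). Trbv30 made up 0.249% ± 0.097 in AC484 tumours (0.087 to 0.423), 0.209% ± 0.093 in anti-PD-1 tumours (0.084 to 0.426) and 0.151% ± 0.193 in vehicle tumours (0 to 0.542). The vehicle tumours thus covered the whole range of the treated ones for both genes. When every tumour was drawn to 5060 TRB reads, the mean number of distinct Trbv23 CDR3s was 3.31 in AC484, 3.57 in anti-PD-1 and 1.76 in vehicle tumours. For Trbv30 it was 2.82 in AC484, 1.88 in anti-PD-1 and 0.913 in vehicle tumours. The same draws kept 854 distinct TRB CDR3s of any start in AC484, 651 in anti-PD-1 and 374 in vehicle tumours.

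**Figure D1:**
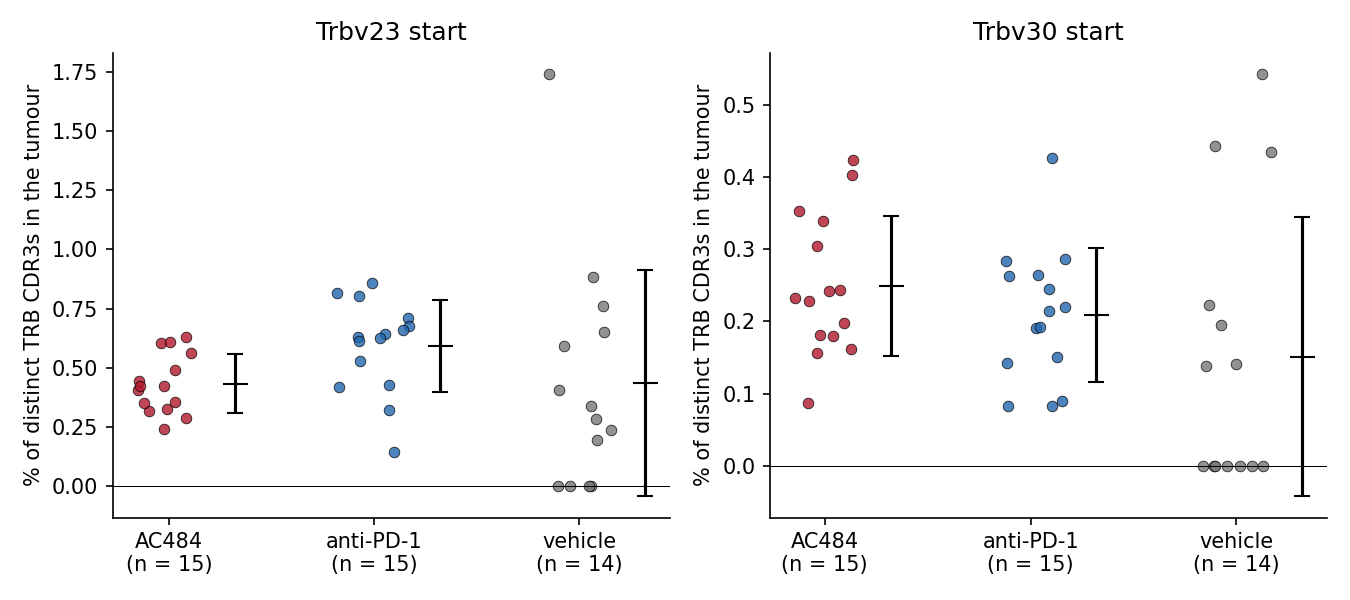
Percent of the distinct TRB CDR3s of each tumour that start like Trbv23 (left) or Trbv30 (right), by treatment; each point is 1 tumour and the bars give the mean and 1 SD. Vehicle tumours spread from 0 to 1.74% (Trbv23) and from 0 to 0.542% (Trbv30) and cover the range of both treated groups.

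A difference between treatments passed the test for 1 of the 2 genes in 1 of the 3 comparisons. With edgeR's quasi-likelihood test on distinct CDR3s per start, Trbv23 was lower in AC484 than in anti-PD-1 tumours by a log2 difference of -0.52 ± 0.17 (SE), a ratio of 0.696, with an adjusted p of 0.0318 over 26 starts. In this comparison 3 of the 26 starts (11.5%) passed, 2 of them (7.69%) lower and 1 (3.85%) higher in AC484. The other 2 were Trbv1 (-0.18 ± 0.05, adjusted p = 0.0318) and the shared start CASS (+0.04 ± 0.01, adjusted p = 0.0346). Each SE was taken as the size of the log2 difference divided by the square root of edgeR's F statistic. For CASS the unadjusted edgeR p of 0.00399 is larger than this SE alone would give. The Trbv23 difference was -0.36 within index set 3, the only set with both treatments (7 AC484 and 5 anti-PD-1 tumours, edgeR adjusted p = 0.781), and -0.20 with all tumours drawn to equal reads (adjusted p = 0.669). The call was also lost without AC484 tumour 7 (adjusted p = 0.0737), without anti-PD-1 tumour 2 (0.0539) and without anti-PD-1 tumour 7 (0.0600). For Trbv30 the AC484 minus anti-PD-1 difference was +0.35 ± 0.23 (edgeR adjusted p = 0.321).

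Against vehicle, neither gene passed. AC484 minus vehicle was -0.23 ± 0.28 for Trbv23 (edgeR adjusted p = 0.902) and +0.26 ± 0.37 for Trbv30 (adjusted p = 0.902). Neither value was stable in size. For Trbv23 it was -0.35 without vehicle tumour 3, -0.10 without vehicle tumour 14, -0.69 with index set as a term and -0.02 at equal reads. For Trbv30 it was +0.58 without vehicle tumour 11, +0.05 without vehicle tumour 14, +0.88 with index set as a term and +0.04 with the vehicle tumours of few CDR3s left out. The direction held and no adjusted p passed in any of these fits. Anti-PD-1 minus vehicle was +0.29 ± 0.27 for Trbv23 (adjusted p = 0.827) and -0.09 ± 0.41 for Trbv30 (adjusted p = 0.862). In both comparisons 0 of 26 starts (0%) passed in the main edgeR fit, and 0 passed by DESeq2. With TMM scaling, and with index set as a term, 1 of 26 starts passed in each comparison, neither Trbv23 nor Trbv30. At an unadjusted p under 0.05 in the main edgeR fit stood 0 starts for AC484 against vehicle and 1 (3.85%) for anti-PD-1 against vehicle. The standard errors leave room for differences in either direction.

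The share of reads was carried by a few large clones and spread far more widely than the number of CDR3s. Trbv23 held 0.156% ± 0.190 of TRB reads in AC484 tumours (SD, n = 15; median 0.110, highest 0.821), 0.970% ± 1.59 in anti-PD-1 tumours (n = 15; median 0.308, highest 4.85) and 1.04% ± 2.43 in vehicle tumours (n = 14; median 0.032, highest 9.03). Trbv30 held 0.153% ± 0.131 in AC484 tumours (median 0.111, highest 0.501), 0.269% ± 0.586 in anti-PD-1 tumours (median 0.074, highest 2.35) and 0.0454% ± 0.067 in vehicle tumours (median 0.004, highest 0.195). AC484 tumours thus had the narrowest spread for Trbv23, while a few tumours of the other 2 groups stood far above their own medians.

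No difference in read share passed the permutation test of group means, in which 0 of 26 starts (0%) were called in each comparison. For Trbv23 the AC484 minus anti-PD-1 difference was -0.814 percentage points (permutation p = 0.0366, adjusted p = 0.238), AC484 minus vehicle was -0.881 (permutation p = 0.101, adjusted p = 0.436) and anti-PD-1 minus vehicle was -0.0674 (permutation p = 0.932). Without vehicle tumour 10 the AC484 minus vehicle difference shrank to -0.266 and the anti-PD-1 minus vehicle difference turned to +0.548. For Trbv30, AC484 minus vehicle was +0.108 points (permutation p = 0.00663, adjusted p = 0.172), AC484 minus anti-PD-1 was -0.115 (permutation p = 0.761, adjusted p = 0.792) and anti-PD-1 minus vehicle was +0.223 (permutation p = 0.0332, adjusted p = 0.713). Without anti-PD-1 tumour 12 the AC484 minus anti-PD-1 difference turned to +0.0334 and the anti-PD-1 minus vehicle difference fell to +0.0744. Within index set 3, AC484 minus anti-PD-1 was -0.159 points for Trbv23 and -0.523 for Trbv30 (exact permutation p = 0.0492, adjusted p = 0.443). Within index set 2, with 10 anti-PD-1 against 2 vehicle tumours, anti-PD-1 minus vehicle was +0.881 for Trbv23 and +0.0334 for Trbv30. At an unadjusted p under 0.05 stood 4 starts (15.4%) for AC484 against anti-PD-1, 2 (7.69%) for AC484 against vehicle and 1 (3.85%) for anti-PD-1 against vehicle.

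With the largest clone of the gene left out of each tumour, the mean read share of Trbv23 was 0.0668% in AC484, 0.157% in anti-PD-1 and 0.0751% in vehicle tumours. That of Trbv30 was 0.0664% in AC484, 0.0388% in anti-PD-1 and 0.0132% in vehicle tumours. In tumours with at least 5 CDR3s of the gene, the largest clone held a median of 29.7% of the Trbv23 reads in AC484 tumours (15), 57.4% in anti-PD-1 tumours (13) and 51.3% in vehicle tumours (3). For Trbv30 it held a median of 43.3% in AC484 tumours (12), 44.9% in anti-PD-1 tumours (5) and 72.7% in the 1 vehicle tumour.

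**Figure D2:**
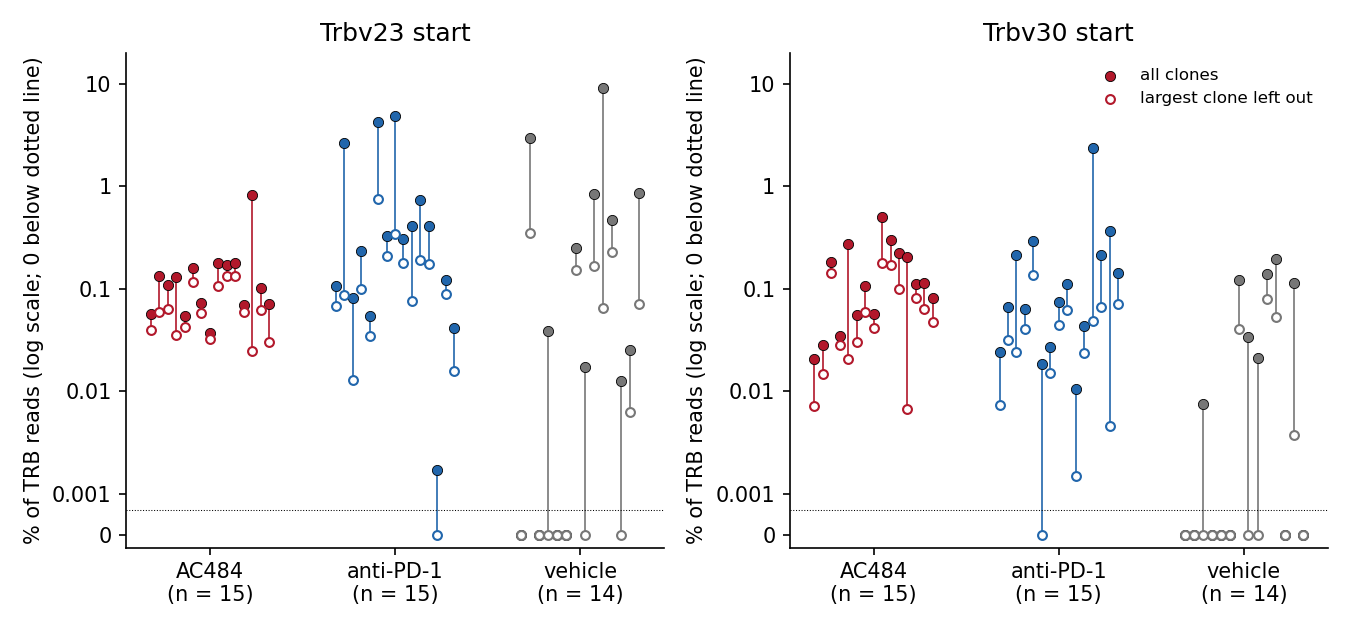
Percent of TRB reads (log axis, with 0 drawn below the dotted line) held by Trbv23 (left) and Trbv30 (right) in each tumour, by treatment; filled points count all clones of the gene and open points, joined by a line, leave out its largest clone. The highest filled points, 9.03% in a vehicle tumour for Trbv23 and 2.35% in an anti-PD-1 tumour for Trbv30, lose the most percentage points.

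The clones behind these shares are shown by sequence where they are short enough to be compared. Residues just before a listed ending can still come from the J gene. Trbj1-4, for example, reads SNERLFF where its listed ending is ERLFF. Of the members, 6 entries held at least 1% of the TRB reads of their tumour, 5 of Trbv23 and 1 of Trbv30. None was in an AC484 tumour, 4 were in anti-PD-1 tumours and 2 in vehicle tumours. Among all other TRB entries 601 (0.631%) reached that share, with the treatments pooled. The other entries were not split by treatment and the groups differ in their number of CDR3s, so the split of the members is a description. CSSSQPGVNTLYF in anti-PD-1 tumour 4 (1.13%) has no listed ending and was not counted. The entry with the highest share was a Trbv23 CDR3 of 15 residues ending in Trbj1-4, with 454 of the 5060 TRB reads of vehicle tumour 10 (8.97%, 95% Wilson interval 8.22 to 9.79). That tumour had the fewest TRB reads of all. The second was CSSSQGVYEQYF, joined to Trbj2-7, with 7439 reads in anti-PD-1 tumour 8 (4.52%, interval 4.42 to 4.62). The third was a Trbv23 CDR3 of 15 residues ending in Trbj1-4 with 9490 reads in anti-PD-1 tumour 6 (3.47%, interval 3.40 to 3.54).

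Below these came a Trbv23 CDR3 of 16 residues ending in Trbj2-4 with 1512 reads in vehicle tumour 2 (2.62%), and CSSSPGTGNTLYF, joined to Trbj1-3, with 10066 reads in anti-PD-1 tumour 2 (2.58%). The only Trbv30 clone of this size was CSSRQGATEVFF, joined to Trbj1-1, with 2865 reads in anti-PD-1 tumour 12 (2.30%, interval 2.22 to 2.39). The largest clones of AC484 tumours were smaller. They were a Trbv23 CDR3 of 18 residues ending in Trbj2-3 in AC484 tumour 13 (1307 reads, 0.796%) and the Trbv30 CDR3 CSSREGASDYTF, joined to Trbj1-2, in AC484 tumour 9 (106 reads, 0.322%, interval 0.266 to 0.389). The largest Trbv30 clone of a vehicle tumour was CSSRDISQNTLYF in vehicle tumour 11 (24 reads, 0.142%). The 5 largest entries together held 70.2% of all Trbv23 reads and 53.7% of all Trbv30 reads, against 9.17% for the 5 largest of all other TRB entries, which are many more.

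Clone size was also compared within tumours, as the mean log2 of reads per CDR3. Trbv30 CDR3s averaged 3.18 against 2.41 for all other TRB CDR3s of the same tumour, a difference of +0.77, and were larger in 15 of 18 tumours with at least 5 Trbv30 CDR3s (sign-flip permutation test, adjusted p = 0.00981 over 26 starts). Among all starts 13 of 26 (50%) were called in either direction, 5 (19.2%) of them higher and 8 (30.8%) lower. Trbv31 was also higher (+0.62). In the 5 tumours with at least 10 Trbv30 CDR3s, all AC484, the difference was +0.42 (exact permutation, adjusted p = 0.317, where the smallest exact p before adjustment is 0.0625). Trbv23 CDR3s averaged 2.52 against 2.80 for the rest, a difference of -0.28 in 31 tumours, 15 higher and 16 lower (permutation, adjusted p = 0.0987). By treatment, the median Trbv23 entry had 3 reads in AC484, 5 in anti-PD-1 and 7 in vehicle tumours, and the median Trbv30 entry had 5 in AC484, 26 in anti-PD-1 and 2 in vehicle tumours. These are raw reads over pooled entries of tumours that differ in depth. Other TRB entries were not split in this way, so the medians are a description.

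Trbv30 CDR3s were shorter than those of the rest of their tumours, and Trbv23 CDR3s did not pass the test. Trbv30 CDR3s averaged 13.4 residues against 14.1 for the rest of the same tumour, a difference of -0.702, and were shorter in 18 of 18 tumours (permutation, adjusted p = 2.6e-05). This was common among starts, of which 19 of 26 (73.1%) were called and 16 (61.5%) were shorter. Trbv20, whose CDR3s were also shorter, differed by -0.434. Trbv23 CDR3s averaged 14.23 against 14.11 residues (+0.124, 31 tumours, permutation, adjusted p = 0.0820). Over all entries the most frequent length was 13 residues for Trbv30 (36.8%), whereas Trbv23 had nearly equal shares of 14 (27.5%) and 15 residues (27.3%) and all other TRB had 14 (30.8%). The 2 genes were not tested against each other, and their means per tumour overlapped (12.7 to 14.0 residues for Trbv30, 13.6 to 15.3 for Trbv23). The germline ends shown above differ by 3 coding bases, 17 for Trbv23 and 14 for Trbv30. The ends of Trbv20 and Trbv31 also have 14. Trbv31 CDR3s were longer than the rest (+0.129, 42 tumours, permutation, adjusted p = 4.73e-05). Whether the V end bears on length was not tested.

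**Figure D3:**
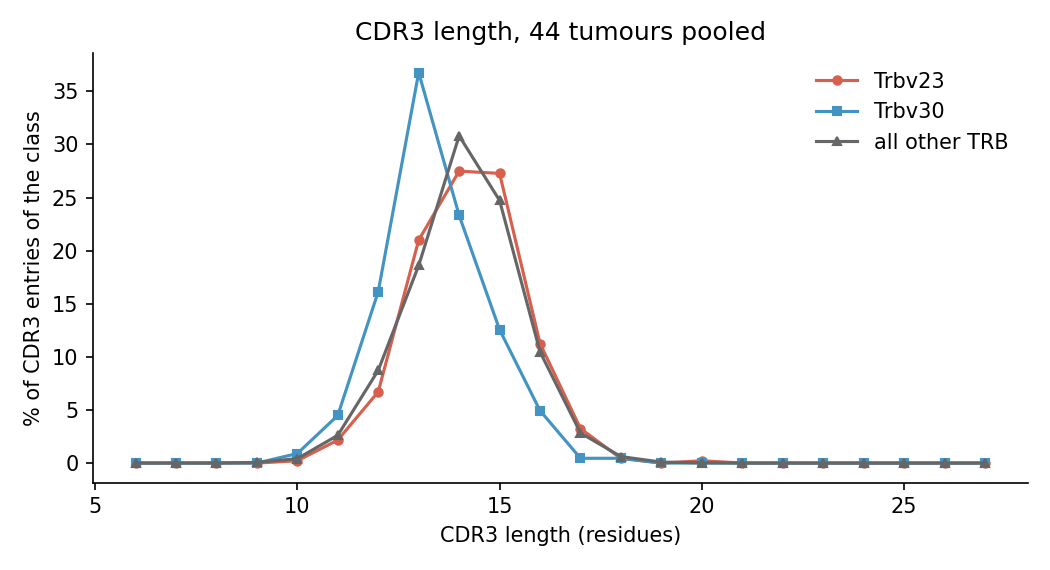
Percent of CDR3 entries by length in residues for Trbv23, Trbv30 and all other TRB, with the 44 tumours pooled. Trbv30 has its highest share at 13 residues (36.8%), all other TRB at 14 (30.8%), and Trbv23 nearly equal shares at 14 and 15.

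No Trbj ending was called as more or less frequent with either V gene than in the rest of the tumour. Within tumours, 0 of 12 endings passed for Trbv23 and 0 of 12 for Trbv30, against 14 of 312 pairs of start and ending (4.49%) over all starts, 5 (1.6%) higher and 9 (2.88%) lower. At an unadjusted permutation p under 0.05 stood 1 ending for Trbv23, 0 for Trbv30 and 52 of 312 (16.7%) over all starts. The 1 ending was Trbj2-4, which closed 4.77% of Trbv23 CDR3s against 7.52% of the rest of the same tumours, lower in 22 of 31 (permutation p = 0.0417, adjusted p = 0.271). Among CDR3s that keep the full germline start CSSSQ this difference passed, with 2.62% against 7.55% in 21 tumours (permutation, adjusted p = 0.0233). Trbj1-4 closed 9.12% of Trbv23 CDR3s against 6.92% of the rest (adjusted p = 0.329), higher in 21 of 31 tumours, but 4.70% against 7.05% among those starting CSSSQ. For Trbv30 the widest gap was at Trbj2-7, with 21.1% against 15.3% (permutation, adjusted p = 0.535, 18 tumours). The differences had an SD over tumours of 4.38 to 12.4 points for Trbv23 and of 5.00 to 17.8 points for Trbv30.

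By reads the pairing was far more uneven. The Trbj1 cluster, the 6 J genes that follow Trbd1, closed 38.3% of Trbv23 entries, 29.6% of Trbv30 entries and 34.3% of all other TRB entries, but held 64.1% of Trbv23 reads, 52.4% of Trbv30 reads and 38.0% of other TRB reads. For Trbv23, Trbj1-4 held 26.3% of reads, Trbj1-3 held 24.3% and Trbj2-7 held 19.3%, and in each most reads were those of 1 clone named above. For Trbv30, Trbj1-1 held 36.1% of reads, 2910 of 3220 of them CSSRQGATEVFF.

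**Figure D4:**
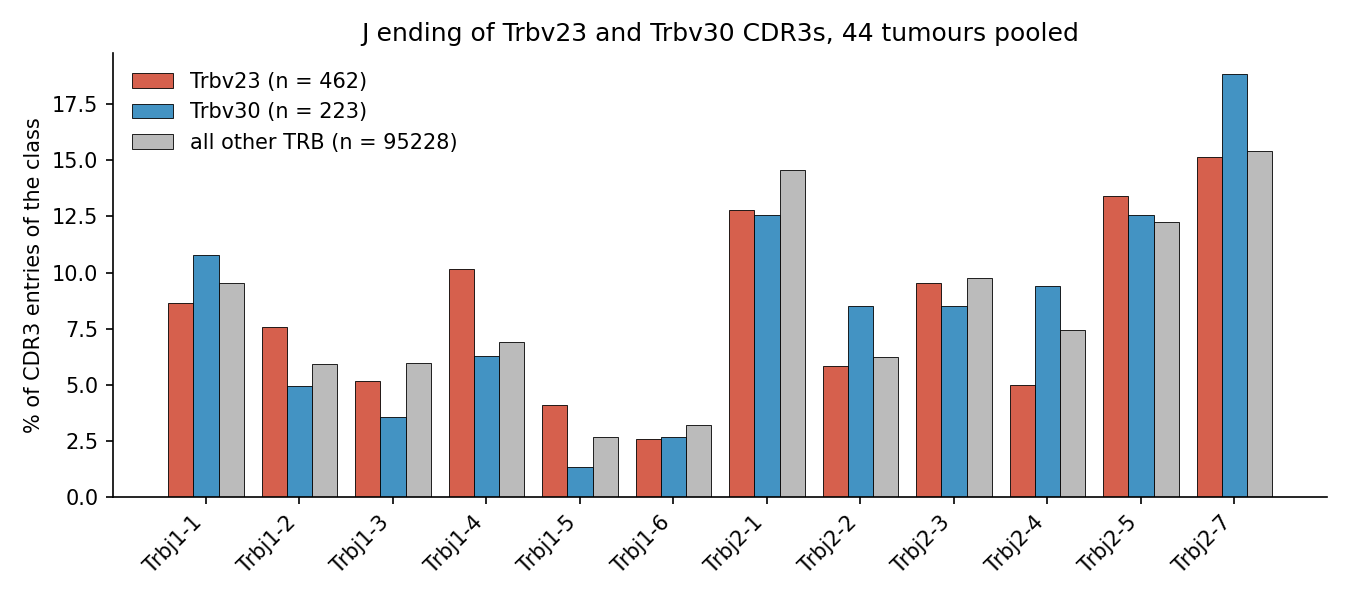
Percent of CDR3 entries closed by each of the 12 Trbj endings for Trbv23 (462 entries), Trbv30 (223) and all other TRB (95228), with the 44 tumours pooled. The tallest gap for Trbv23 is at Trbj1-4 (10.2%, against 6.91% in all other TRB), and no ending passed the test within tumours.

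Both large Trbv23 clones that end in Trbj1-4 carry arginine and aspartate after the V end, so the stretch RDR, which the clone of anti-PD-1 tumour 6 carries and that of vehicle tumour 10 does not, and the frames of Trbd1 were counted. This choice was made after these values were seen and is given without a test. Trbd1, gggacagggggc at chr6:41533201-41533212, reads GTGG, GQG or DRG in its 3 frames, none of which spells RDR. The DRG frame does open with the DR that closes RDR. The gg before that frame in Trbd1 could end an arginine codon after 1 added base. RDR can thus hold Trbd1 bases, and a CDR3 can count for both RDR and DRG. The stretch RDR stood in 18 of 421 distinct Trbv23 CDR3s (4.28%), in 1 of 207 of Trbv30 (0.483%) and in 1208 of 72137 other TRB CDR3s (1.67%). Among CDR3s ending in Trbj1-4 it stood in 8 of 35 of Trbv23 (22.9%), in 0 of 12 of Trbv30 and in 150 of 5218 of the others (2.87%). An example short enough to print is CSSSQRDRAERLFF, with 156 reads in anti-PD-1 tumour 7. The Trbv23 CDR3s with RDR were listed in 21 tumours with 11582 reads, 9490 of them from the clone of anti-PD-1 tumour 6, and in 16 tumours once entries under 1% of the reads of the largest entry of the same CDR3 were left out. In the other genes with a start of their own, the stretch stood in 0.588% (Trbv20) to 1.48% (Trbv1) of distinct CDR3s. The GQG frame of Trbd1 was found in 16 of 421 Trbv23, 7 of 207 Trbv30 (3.38%) and 2173 of 72137 other TRB CDR3s (3.01%). The DRG frame was found in 14 of 421 Trbv23 (3.33%), 7 of 207 Trbv30 (3.38%) and 2016 of 72137 others (2.79%), and GTG in 21 Trbv23 (4.99%), 17 Trbv30 (8.21%) and 3740 others (5.18%). Trbd2 also reads GTGG in a frame, and these counts are over all J endings, so GTG cannot be assigned to Trbd1.

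CDR3s of both genes were mostly private to 1 tumour. Over tumours with at least 5 CDR3s, 14.3% of Trbv23 CDR3s were found in at least 1 other tumour against 36.9% of the rest, a difference of -22.5 points, lower in 29 of 31 tumours (permutation, adjusted p = 2.89e-05). For Trbv30 the shares were 10.6% against 34.7%, a difference of -24.1 points, lower in 17 of 18 tumours (permutation, adjusted p = 2.89e-05). Low sharing was the rule among starts, of which 25 of 26 (96.2%) were called and 23 (88.5%) were lower, so it is not particular to these genes. Trbv1 differed by -16.6 points, Trbv31 by -12.7 and Trbv13-2 by -9.91, while Trbv20 (+5.91) and the shared start CASS (+18.1) were higher.

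**Figure D5:**
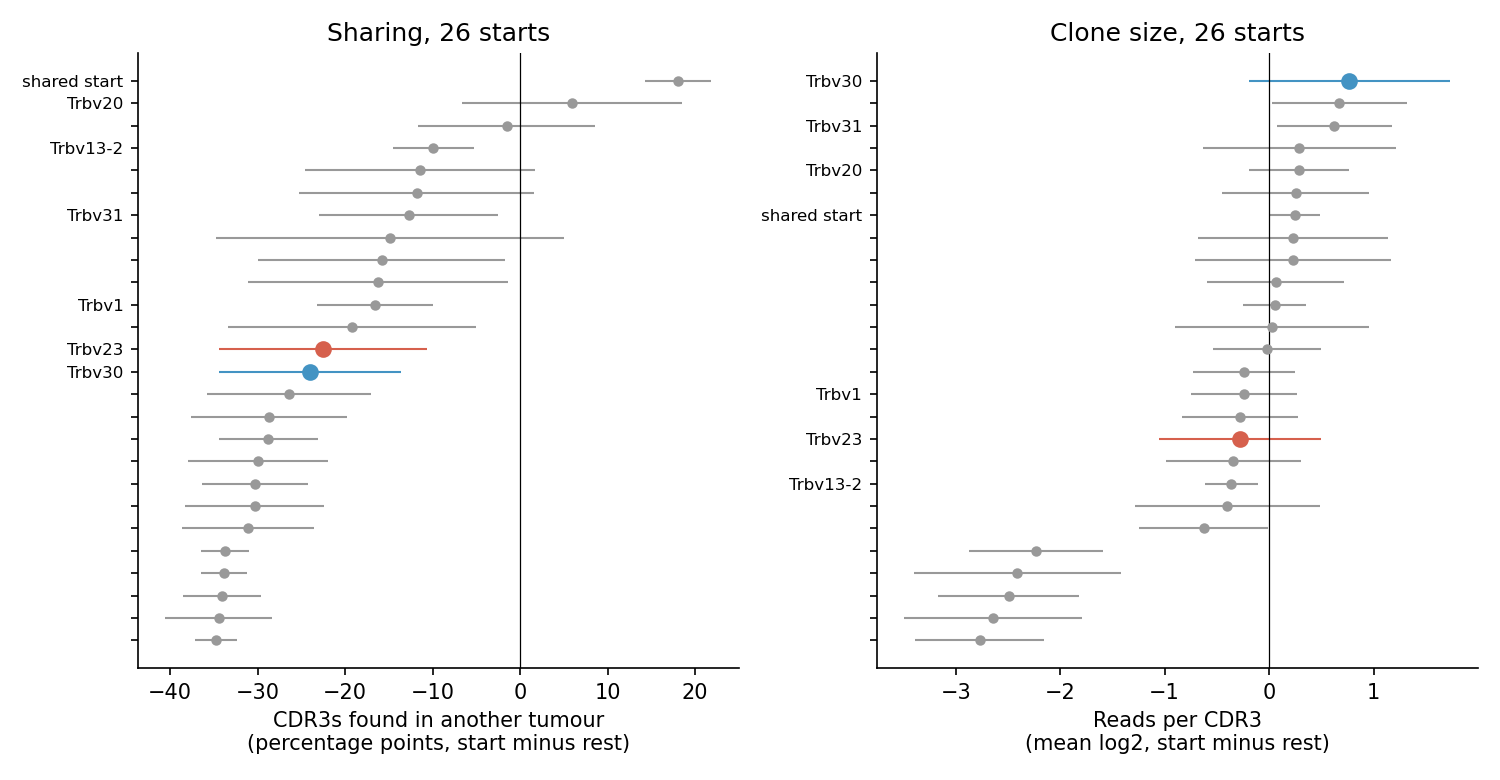
For each of the 26 starts, the start minus the rest of the same tumour in the percent of CDR3s found in another tumour (left) and in the mean log2 of reads per CDR3 (right); points are means and bars 1 SD over tumours with at least 5 CDR3s, with Trbv23 in red and Trbv30 in blue. Sharing of both genes lies in the middle of the starts. Trbv30 has the highest start-minus-rest difference in clone size of the 26 (+0.77, SD 0.96, 18 tumours).

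Taken over distinct CDR3s, 20 of 421 of Trbv23 (4.75%) and 9 of 207 of Trbv30 (4.35%) were found in more than 1 tumour, against 15.3% of other TRB CDR3s. Many shared Trbv23 CDR3s were lopsided. In 14 of the 20, 1 tumour held at least 99% of the reads, against 1 of 9 for Trbv30 and 7.24% of other shared TRB CDR3s. Of the 61 entries of shared Trbv23 CDR3s, 33 (54.1%) had under 1% of the reads of the largest entry, against 6 of 25 for Trbv30 and 12.2% for other TRB. Of these 33 low entries 28 (84.8%) were in the index set of the tumour with the largest entry, as were 6 of 6 for Trbv30 and 54.7% for other TRB. Of the entries at or above 1% of the largest, beside the largest itself, 6 of 8 (75%) for Trbv23, 5 of 10 for Trbv30 and 29.7% for other TRB were in that set. Leaving out such low entries moved sharing to 3.73% against 32.8% for Trbv23 and to 9.17% against 31.4% for Trbv30. Whether reads moved between libraries was not tested.

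The CDR3s found in the most tumours show this. The Trbv23 clone of 15 residues that held 9490 reads in anti-PD-1 tumour 6 was listed in 10 tumours, but the other 9 held 15 reads in all, none more than 3, and 8 of those 9 were in index set 2 with it. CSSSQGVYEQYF was listed in 6 tumours, with 7439 of its 7450 reads in anti-PD-1 tumour 8 and the other 5 tumours all in the same index set. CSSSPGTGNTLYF and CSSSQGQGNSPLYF were listed in 4 tumours each, with all but 5 and 15 reads in 1 tumour. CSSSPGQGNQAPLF was less lopsided. It had 130 reads spread over 4 AC484 tumours, 99 of them in AC484 tumour 2, with at least 3 reads in each of the others. Of those others, 2 were in index set 3 with AC484 tumour 2. A copy with CASS stood beside this CDR3 in AC484 tumour 2 with 6 reads.

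For Trbv30, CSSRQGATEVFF was listed in 5 tumours, all in index set 3, with 2865 reads in anti-PD-1 tumour 12 and 45 reads in the other 4, of which 39 were in 1 tumour. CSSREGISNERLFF had 631 of 633 reads in anti-PD-1 tumour 14. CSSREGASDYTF and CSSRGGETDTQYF were both listed in AC484 tumours 9, 10 and 11, all in index set 4, with 106 of 115 and 49 of 52 reads in AC484 tumour 9. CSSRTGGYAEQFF had 49 of its 57 reads in AC484 tumour 13 and at least 3 in each of AC484 tumours 4 and 6, neither of which was in its index set. Of the distinct CDR3s, 1 of 421 of Trbv23, 0 of 207 of Trbv30 and 273 of 72137 of other TRB were listed in 10 or more tumours.

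By treatment, 2 of the 20 shared Trbv23 CDR3s were shared among AC484 tumours only, 6 among anti-PD-1 tumours only and 1 among vehicle tumours only, while 5 lay in AC484 and anti-PD-1 tumours, 4 in anti-PD-1 and vehicle tumours and 2 in all 3 groups. Of the 9 shared Trbv30 CDR3s, 4 lay in AC484 tumours only, 1 in anti-PD-1 tumours only, 3 in AC484 and anti-PD-1 tumours and 1 in AC484 and vehicle tumours. Of 11037 other shared TRB CDR3s, 26.3% lay in AC484 tumours only, 8.13% in anti-PD-1 tumours only, 1.13% in vehicle tumours only, 40.3% in AC484 and anti-PD-1 tumours, 5.66% in anti-PD-1 and vehicle tumours, 8.52% in AC484 and vehicle tumours and 9.97% in all 3 groups. The groups differ in depth and in the number of CDR3s, so these shares are a description. Of the distinct Trbv23 CDR3s, 113 (26.8%) differed by 1 edit from another of the same gene, in 69 pairs, of which 12 lay within 1 tumour. For Trbv30 there were 63 (30.4%) in 40 pairs, of which 6 lay within 1 tumour. The same share was 65.9% (Trbv31) to 77.5% (Trbv13-2) in the other genes with a start of their own, which have many more CDR3s to be near to, so the shares cannot be compared directly.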

How the data were processed

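TCRα and TCRβ transcripts of 44 tumours were captured with the SMARTer Mouse TCR a/b kit, sequenced on a MiSeq and assembled by the authors into amino acid clonotypes with MiXCR. The submitters' notes name mm10. The deposited values are counts of reads per CDR3 and tumour, both chains together, with no depth normalization, V gene or nucleotides; library concentration (nM) and index primer set were deposited in other columns of the same table. The members, lists and tests were chosen with earlier results of these data known.

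CDR3s with 1 of 12 Trbj endings were taken as TRB. Distinct CDR3s per 4-residue start (26 starts with at least 100 entries) were tested with edgeR 4.0.16 quasi-likelihood fits in R 4.3.3, all 44 tumours in 1 fit, with distinct TRB CDR3s as library size; DESeq2 1.42.0 was an alternative. Read shares were compared by two-sided permutation of treatment labels (100000 resamples, or all label arrangements within index sets). Sharing, length, clone size and J pairing were compared with the rest of each tumour by two-sided sign-flip permutation, in tumours with at least 5 CDR3s. P-values were adjusted by Benjamini-Hochberg over all starts (starts and endings for J), with a threshold of 0.05. The scripts were tested on simulated data. CDR3s spelled out are those found in the most tumours or with the largest share in a treatment, up to 14 residues, together with the largest clones and those named as chosen later. No 2 tumours shared over 21.2% of the smaller tumour's TRB CDR3s.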

Additional observations from a re-analysis of the deposited data

Results flagged for a closer look

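Entries with the start of either gene but none of the 12 listed endings were outside all comparisons. For Trbv23 these were 75 entries, which with the members make 537, and they held 7255 of 50599 reads. For Trbv30 they were 40 entries of 263, with 535 of 9464 reads. Of these, 62 for Trbv23 and 36 for Trbv30 ended in the last 4 residues of a listed ending. The largest were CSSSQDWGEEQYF with 1374 reads in AC484 tumour 13 (0.837% of its TRB reads), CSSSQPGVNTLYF with 4529 reads in anti-PD-1 tumour 4 (1.13%) and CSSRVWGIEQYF with 239 reads in vehicle tumour 13 (0.302%). No cause was tested.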

How the results depend on the processing

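Over 20 results and 178 alternatives, 147 kept direction and side of the threshold, as did 430 of 440 fits that left out 1 tumour. The lower number of Trbv23 CDR3s in AC484 than in anti-PD-1 tumours lost its call, on the log2 scale, under TMM scaling (-0.47, adjusted p = 0.104), starts with at least 20 entries (-0.51), drawing to equal reads (-0.20), single reads left out (-0.38), entries under 1% of their CDR3's largest entry left out (-0.39), the start CSSSQ (-0.52), index set as a batch term (-0.36) and within index set 3 (-0.36), and ran from -0.57 to -0.48 with 1 tumour left out. DESeq2 kept it (adjusted p = 0.0361). Anti-PD-1 against vehicle turned sign for Trbv23 under CSSSQ (-0.049), index set as a term (-0.33) and within index set 2 (-0.33), and for Trbv30 under TMM (0.0032), equal reads (+0.39), index set as a term (+0.63), within set 2 (+0.63) and with 1 tumour left out (-0.30 to +0.23), none past the threshold.

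Whether replicate numbers shared by the treatments pair tumours is not stated. Of same-numbered pairs, 6 of 14, 4 of 15 and 4 of 14 (AC484 and vehicle, AC484 and anti-PD-1, anti-PD-1 and vehicle) correlated above 0.1. The ranges were -0.27 to 0.56, -0.27 to 0.35 and -0.33 to 0.37. The best match had the same number in 3, 0 and 0 of them. With the replicate number as a block, Trbv23 AC484 minus anti-PD-1 was -0.49 (edgeR adjusted p = 0.0658), calls in that comparison fell to 0, with 3 without the block, Trbv30 anti-PD-1 minus vehicle was +0.11, and the read share of Trbv30 in AC484 over vehicle tumours passed (+0.113 points, permutation adjusted p = 0.0127). 

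The read share of Trbv23 turned sign under ranks for AC484 against vehicle (+2.21 ranks), and for anti-PD-1 against vehicle under ranks (+4.28), without the largest clone (+0.0817 points), under CSSSQ (+0.311), within set 2 (+0.881), with shortened endings (+0.0381) and with 1 tumour left out (-0.344 to +0.548). That of Trbv30 in AC484 against anti-PD-1 tumours did so under ranks (+1.53), without the largest clone (+0.0275) and with 1 tumour left out (-0.140 to +0.0334). Under CSSSQ 1 J ending passed and Trbv23 length did (+0.299 residues, permutation adjusted p = 0.0183). With at least 10 CDR3s per tumour Trbv30 lost its calls for sharing (-19.8 points), length (-0.81) and clone size (+0.42), in 5 tumours that cannot reach the threshold. Fits within a set, with shortened endings or without the 8 smallest vehicle tumours were added after seeing the data. Other causes were not tested. Vehicle depth limits every comparison with vehicle.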
